A study of Mus musculus with 11 samples.

Results

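The 78 genes described here are named for proteins of the mitochondrial ribosome. They were chosen by name from the 24421 genes of the count table: every gene whose symbol is Mrpl or Mrps followed by a number and at most 1 letter from a to c was taken, with no use of its counts. Of these, 49 carry an Mrpl name, for the large subunit, and 29 an Mrps name, for the small subunit. Mrps18a and Mrps30 encode large-subunit proteins despite their names, and Mrps36 is now regarded as part of another complex. All 78 had at least 1 read in each of the 11 libraries. Subunits of the same ribosome that carry other names (Dap3, Ptcd3, Chchd1, Aurkaip1, Gadd45gip1) are not among the 78 and are given separately.

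The mitochondrial ribosome translates the few messenger RNAs made from mitochondrial DNA, which encode core subunits of the respiratory chain and ATP synthase. Its proteins are all encoded in the nucleus, made in the cytosol and imported, and they assemble on ribosomal RNA made inside the organelle. Some descend from proteins of the bacterial ribosome and others are specific to mitochondria. The mouse egg carries a very large store of mitochondria and of maternal messenger RNA. Much of that RNA is removed around the 2-cell stage, when transcription of the embryo's genome becomes strong.

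The study compared mouse oocytes and 2-cell embryos with and without maternal Daxx, a chaperone for a variant of histone H3. RNA-seq libraries were made from total RNA of pools of 50 oocytes or embryos, each pool from 2 to 3 females over 8 weeks old that had been given 5 IU of PMSG and 5 IU of hCG. Knockout embryos (Daxx f/f; Zp3-cre; m-z+; 2 libraries, replicates 2 and 3) and control embryos (Daxx f/f; m+z+; 3 libraries) came from in vitro fertilisation with sperm of 8-week-old JF1 males and were taken at the late 2-cell stage, 33 hours after IVF. Knockout oocytes (Daxx f/f; Zp3-cre; 3 libraries) and control oocytes (Daxx f/f; 3 libraries) were at metaphase II, 20 hours after hCG. All females carried both floxed Daxx alleles on a mixed C57BL/6J and 129/Sv background. The Zp3 promoter drives Cre in the growing oocyte, only females of the knockout groups carried Cre, and the embryos received an intact paternal Daxx allele from JF1. The difference between stages therefore also holds fertilisation, culture and the JF1 genome.

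Counted reads came to 17978192 to 25308468 per embryo library and 32582998 to 39798586 per oocyte library. Levels are given in CPM, the reads of a gene per 1000000 counted reads of its library, and 3 reads equal 0.0754 to 0.167 CPM. Daxx itself lay at 22.8 and 25.5 CPM in knockout embryos, against 37.3, 35.2 and 46.7 CPM in control embryos. It lay at 8.20, 8.40 and 7.83 CPM in knockout oocytes, against 97.2, 94.2 and 86.2 CPM in control oocytes, so the levels followed the labels at both stages. By edgeR's quasi-likelihood test the oocyte difference passed an adjusted p under 0.05 (log2 change -3.52, adjusted p = 1.2e-11). The embryo difference was smaller and did not pass (log2 change -0.75, adjusted p = 0.54). The 10 oocyte markers summed to 1504 to 1996 CPM in embryos and 9957 to 10410 CPM in oocytes. The 11 measured late 2-cell markers summed to 710 to 857 CPM in embryos and 2.76 to 5.16 CPM in oocytes. The 14 granulosa and cumulus markers summed to 247 to 326 CPM in embryos and 92.7 to 106 CPM in oocytes, and most of that was Nr5a2, which early embryos also express. Without Nr5a2 they summed to 12.1 to 21.0 CPM in embryos and 28.3 to 38.2 CPM in oocytes. Inha was at 0 in all embryos and Ptx3 at 0 in all oocytes. The 10 sperm and spermatid markers summed to 8.30 to 13.1 CPM in embryos and 20.2 to 27.4 CPM in oocytes, and 58.2 to 84.6% of that was Odf2l. Without Odf2l they summed to 2.41 to 6.52 CPM in knockout embryos and 0.723 to 5.25 CPM in control embryos. In oocytes the rest summed to 6.75 to 8.03 CPM in knockouts and 2.82 to 3.77 CPM in controls. Embryo libraries also differed in the share of reads on Lars2, a mitochondrial leucyl-tRNA synthetase gene, which was 1.81 and 0.552% in knockout embryos and 0.482, 1.85 and 0.871% in control embryos, against 0.142 to 0.201% in oocytes. The part of these markers and of Lars2 in the results was not tested beyond the values given here.

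As a family, the mitochondrial ribosomal protein genes took a smaller share of the reads in embryos than in oocytes. Their reads made up 0.108 and 0.104% of the library in knockout embryos, and 0.104, 0.100 and 0.123% in control embryos. In knockout oocytes the shares were 0.205, 0.217 and 0.209%, and in control oocytes 0.203, 0.210 and 0.197%. Every embryo library lay below every oocyte library, and within a stage the genotypes overlapped. Genes of the cytosolic ribosome went the other way, with 0.307 to 0.423% of reads in embryos and 0.133 to 0.148% in oocytes. Nuclear-encoded respiratory chain genes, whose products work with those that the mitochondrial ribosome makes, took 0.137 to 0.160% in embryos and 0.249 to 0.277% in oocytes. Every pool held the same number of oocytes or embryos, but a share of reads says nothing of the amount of RNA per oocyte or embryo.

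**Figure D1:**
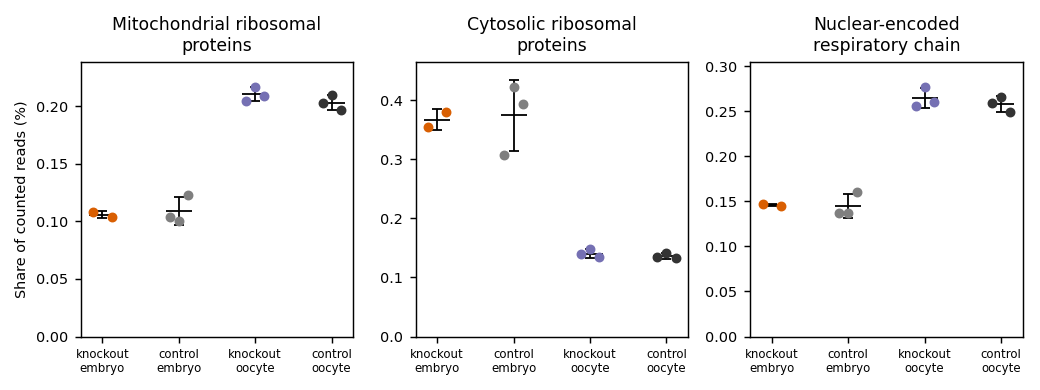
Share of counted reads (%) per library taken by the 78 mitochondrial ribosomal protein genes, the cytosolic ribosomal protein genes and the nuclear-encoded respiratory chain genes, by group; points are libraries, bars the group mean and SD (n = 2 for knockout embryos, n = 3 for the other groups). Mitochondrial ribosomal protein genes took 0.100 to 0.123% in embryos and 0.197 to 0.217% in oocytes, while cytosolic ribosomal protein genes took the larger share in embryos.

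Gene by gene, most mitochondrial ribosomal protein genes fell and a minority rose. Of the 77 that passed the filter on low counts in control embryos against control oocytes, 52 were lower in embryos (background over all 15577 genes tested 40.0%) and 13 were higher (background 43.1%), by edgeR's quasi-likelihood test at an adjusted p under 0.05. The other 12 did not pass the test. At least 2-fold changes were made by 41 lower genes (background 28.5%) and by 6 higher genes (background 33.0%). The median log2 change of the 77 was -1.08, against 0.07 over all genes tested. Single members ranged from -4.77 to 2.95 on the log2 scale. Their SD was 1.73, against 2.95 over all genes tested, 1.79 for cytosolic ribosomal protein genes and 1.57 for respiratory chain genes. By the same test 67 of 85 cytosolic ribosomal protein genes rose and 9 fell, with a median of 1.50, and 10 of 81 respiratory chain genes rose and 64 fell, with a median of -1.58.

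Knockout embryos against knockout oocytes, a comparison that shares no library with the first, showed the same order of members. All 78 passed the filter. Of these, 56 were lower in embryos (background over 16592 genes 37.7%) and 10 were higher (background 42.5%). At least 2-fold changes were made by 43 lower genes (background 26.4%) and by 6 higher genes (background 33.2%). The median was -1.30, against 0.09 over all genes tested. Both comparisons called 52 members lower and 10 higher, and no member was called in opposite directions. Over the 77 members tested in both, the log2 changes had a Pearson correlation of 0.99. Over the 15513 genes tested in both it was 0.98, so agreement this close was not particular to the members. These correlations are a description across genes, and the share of all genes called alike was not computed. There were 7 members that passed in 1 of the comparisons: Mrpl15, Mrpl46, Mrps7 and Mrps11 in knockouts, where all 4 were lower in embryos, and Mrpl41, Mrps6 and Mrps10 in controls, where all 3 were higher. A test of the difference between the stage changes called none of them and is given with the genotype comparisons.

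**Figure D2:**
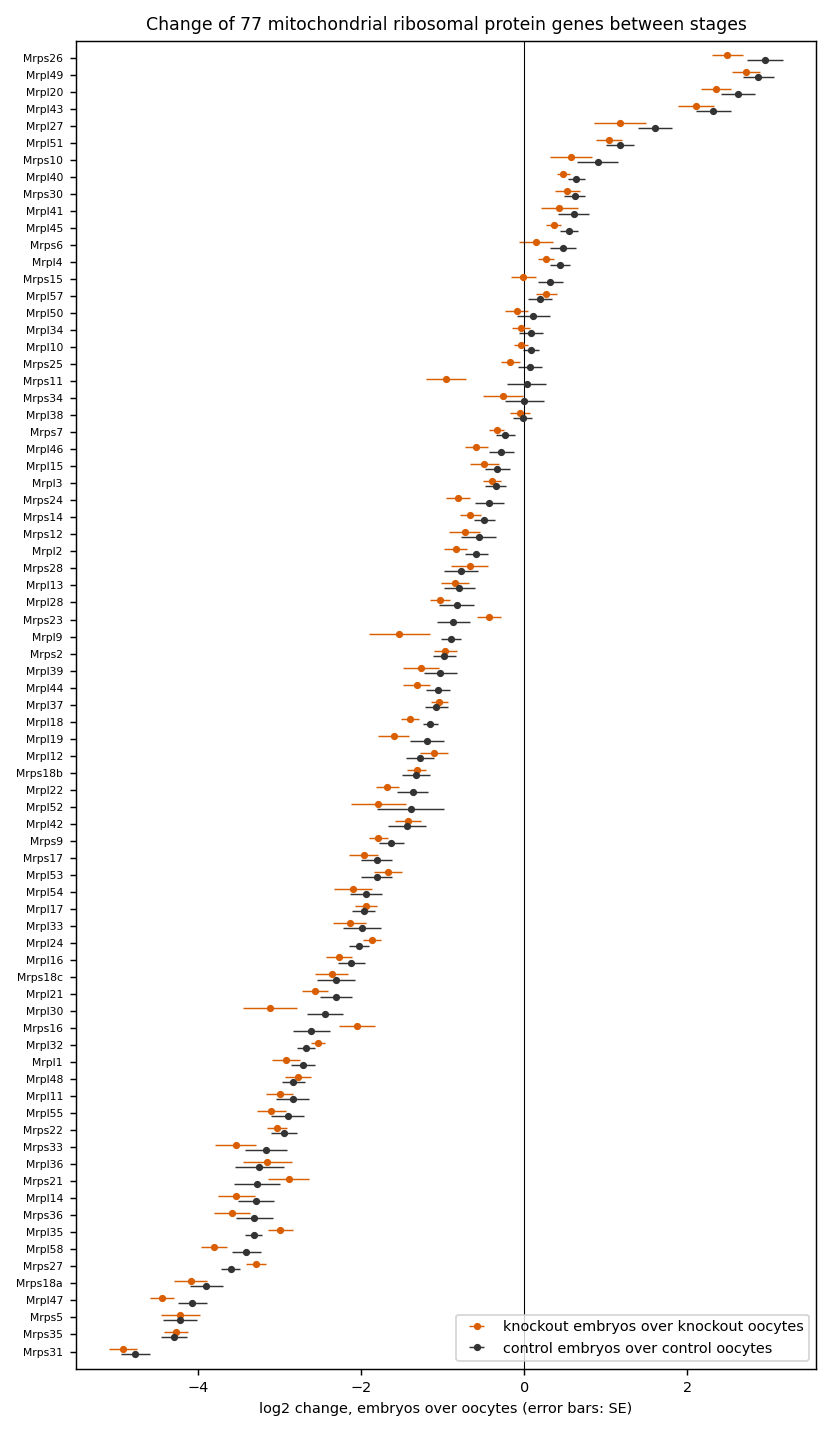
Log2 change in embryos over oocytes for the 77 members tested in both genotypes, ordered by the change in controls; error bars are the SE from edgeR. The members spread from -4.77 for Mrps31 to 2.95 for Mrps26 in controls, and the knockout points run alongside, apart from a gap of 0.98 for Mrps11.

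The promoters of 5 members are shown, of which Mrps26 and Mrpl43 rose and Mrps18a, Mrps27 and Mrpl32 fell. They were picked because they hold motifs of factors known to drive nuclear genes for mitochondria. Each is the 250 bases before the start used by the gene's RefSeq window (GRCm38.p6), 5′ to 3′ on the gene's strand, and distances are from that start. For Mrps27 the gene itself begins at position 99344767, inside the window shown. Capitals mark the ETS motif bound by GABP, CCGGAAG or its reverse CTTCCGG, in the first 4, and in Mrpl32 the NRF1 motif, which was searched as GCGC and GCGC separated by any 2 bases. The windows lie at chr2:130563507-130563756 (plus strand) for Mrps26, chr19:45006443-45006692 (minus) for Mrpl43, chr17:46110754-46111003 (plus) for Mrps18a, chr13:99344536-99344785 (plus) for Mrps27 and chr13:14613038-14613287 (minus) for Mrpl32.
Mrps26: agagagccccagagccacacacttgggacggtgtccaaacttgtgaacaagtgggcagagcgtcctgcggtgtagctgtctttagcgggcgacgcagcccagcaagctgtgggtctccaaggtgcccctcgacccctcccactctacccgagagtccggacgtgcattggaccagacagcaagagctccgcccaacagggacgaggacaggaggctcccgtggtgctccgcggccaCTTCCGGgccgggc
Mrpl43: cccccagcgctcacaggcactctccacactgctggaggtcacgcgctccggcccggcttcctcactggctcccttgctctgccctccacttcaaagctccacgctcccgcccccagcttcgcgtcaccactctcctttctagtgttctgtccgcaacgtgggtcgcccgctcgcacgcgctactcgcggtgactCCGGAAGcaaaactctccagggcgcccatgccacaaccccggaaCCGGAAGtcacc
Mrps18a: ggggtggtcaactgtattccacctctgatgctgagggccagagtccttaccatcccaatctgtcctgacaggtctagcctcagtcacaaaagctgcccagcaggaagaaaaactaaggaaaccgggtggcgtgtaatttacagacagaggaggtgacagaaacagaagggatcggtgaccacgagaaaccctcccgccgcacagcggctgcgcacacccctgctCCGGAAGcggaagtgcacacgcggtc
Mrps27: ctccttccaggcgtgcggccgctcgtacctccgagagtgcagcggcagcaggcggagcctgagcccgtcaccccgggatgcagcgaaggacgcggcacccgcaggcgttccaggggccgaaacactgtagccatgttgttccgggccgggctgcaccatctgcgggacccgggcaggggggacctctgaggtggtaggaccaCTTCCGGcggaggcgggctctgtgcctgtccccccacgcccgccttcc
Mrpl32: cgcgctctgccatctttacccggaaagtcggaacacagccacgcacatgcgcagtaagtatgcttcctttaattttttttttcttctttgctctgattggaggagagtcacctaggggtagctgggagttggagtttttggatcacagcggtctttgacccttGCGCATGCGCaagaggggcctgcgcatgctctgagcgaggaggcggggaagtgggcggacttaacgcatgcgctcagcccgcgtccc
The ETS motif began 14 bases before the start of Mrps26, 26 before Mrps18a, 48 before Mrps27, and 56 and 12 before Mrpl43. These promoters were chosen for holding a match. The farthest matches in other falling members were in Mrpl18 at 240 bases before the start, Mrpl17 at 237 and Mrps18c at 156. Further falling members had theirs close to the start, such as Mrps22 at 11, Mrpl58 at 17 and Mrpl48 at 34. Among the members with the largest changes, Mrpl49, Mrpl20, Mrps31, Mrps5 and Mrpl47 had no match to the ETS or NRF1 motif. In Mrpl32 the NRF1 motif began 87 bases before the start.

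Matches to these motifs were counted over the whole family. RefSeq windows of 300 bases, from 250 before to 50 after the start, were found for 69 of the 78 genes and searched on both strands. The ETS motif stood in 26 of 69 (37.7%), against 13.5% of the windows of 16444 protein-coding genes of the table. The NRF1 motif stood in 14 (20.3%, against 10.1%), and the YY1 motif AANATGGCG in 11 (15.9%, against 3.84%). At least 1 of the 3 was found in 43 members (62.3%, against 23.9%). The 16444 genes were not limited to those that passed the filter on low counts. These are matches of letters and not measured binding sites. In control embryos over control oocytes, 20 of 26 members with the ETS motif were called lower and 4 higher, and of 42 tested members without it 27 were lower and 8 higher. Members with the ETS motif had a median log2 change of -1.60, and with minus without the motif this median differed by -0.60, the widest gap of the 3 motifs. For NRF1 the medians were -1.17 with the motif and -1.24 without, and for YY1 they were -1.44 and -1.15. No difference between these groups was tested.

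The largest rises were made by 4 genes. Mrps26, a mitochondrion-specific protein of the small subunit, had 29.6, 19.8 and 37.3 CPM in control embryos, against 3.62, 3.64 and 3.75 CPM in control oocytes. Mrpl49, a mitochondrion-specific protein of the large subunit, had 22.0, 22.5 and 30.0 CPM in control embryos, against 3.13, 4.10 and 2.79 CPM in control oocytes. Mrpl20, a bacterial-type protein of the large subunit, had 10.3, 11.2 and 16.0 CPM in control embryos, against 1.96, 2.24 and 1.77 CPM in control oocytes. All embryo libraries lay well above all oocyte libraries for these 3 genes. Mrpl43, a mitochondrion-specific large-subunit protein, had 20.1, 14.5 and 25.6 CPM in control embryos, against 3.93, 4.30 and 3.62 CPM in control oocytes, again with no overlap. The log2 changes were 2.95 for Mrps26 (SE 0.22, edgeR adjusted p = 1.1e-07), 2.87 for Mrpl49 (SE 0.19, 4.9e-08), 2.62 for Mrpl20 (SE 0.21, 3.1e-07) and 2.32 for Mrpl43 (SE 0.21, 6.2e-07). In knockout embryos over knockout oocytes the same 4 led, with 2.49, 2.72, 2.35 and 2.11.

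Smaller rises joined them. Mrpl27, whose bacterial counterpart reaches into the peptidyl transferase centre, rose by 1.17 in knockouts (SE 0.32, edgeR adjusted p = 0.0069) and by 1.60 in controls (SE 0.21, 1.9e-05), at levels of 5.16 ± 0.365 CPM in control embryos and 1.68 ± 0.0915 CPM in control oocytes (SD, n = 3 each). Mrpl51 rose by 1.04 in knockouts and 1.17 in controls. Mrpl40 and Mrps30, both large-subunit proteins despite the name of the second, were already abundant in oocytes and rose by 0.48 and 0.53 in knockouts and by 0.64 and 0.62 in controls. Mrpl40 had 66.9, 75.0 and 74.9 CPM in control embryos, against 46.0, 47.0 and 43.9 CPM in control oocytes, so its groups did not overlap. Mrpl45, which ties the ribosome to the inner membrane, rose by 0.36 in knockouts and 0.55 in controls, and Mrpl4 by 0.27 and 0.44. Mrps10, a protein of the small-subunit head, was at 0.57 in knockouts (edgeR adjusted p = 0.072) and rose by 0.90 in controls (edgeR adjusted p = 0.0055). Mrpl41 was at 0.43 in knockouts (edgeR adjusted p = 0.11) and rose by 0.61 in controls (edgeR adjusted p = 0.011; 0.40 without control embryo replicate 3). The knockout value of Mrps30 rests on 1 library, and the call of Mrpl4 is close to the threshold. Without knockout embryo replicate 3, Mrps30 was at 0.21 (edgeR adjusted p = 0.093, the highest of its alternatives, from 2.6e-05). Mrpl4 lost its call without that library, without knockout oocyte replicate 2 and without knockout oocyte replicate 3, at 0.24, 0.26 and 0.25 (adjusted p = 0.057, 0.085 and 0.092 in edgeR). With all 5 libraries it also lost the call under the replicate block (0.29, edgeR adjusted p = 0.082) and in the joint fit of 11 libraries (0.25, edgeR adjusted p = 0.052).

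The deepest fall was that of Mrps31, a mitochondrion-specific protein of the small subunit. It had 1.78 and 1.21 CPM in knockout embryos, against 42.7, 47.6 and 42.9 CPM in knockout oocytes. In controls it had 1.72, 1.20 and 1.30 CPM in embryos, against 37.9, 40.1 and 34.7 CPM in oocytes. The log2 changes were -4.92 in knockouts (SE 0.17, edgeR adjusted p = 9.3e-09) and -4.77 in controls (SE 0.18, 4.0e-10). By CPM Mrps31 ranked 70 of 78 among the members in embryos of both genotypes, against 16 in knockout oocytes and 17 in control oocytes. Mrps35, also specific to mitochondria, had 1.78, 2.25 and 2.52 CPM in control embryos, against 39.6, 43.9 and 42.7 CPM in control oocytes. Mrps5, a bacterial-type protein near the decoding site, had 1.28, 0.784 and 1.52 CPM in control embryos, against 22.9, 22.6 and 20.6 CPM in control oocytes. Mrpl47, the counterpart of a bacterial protein at the exit of the peptide tunnel, had 2.17, 1.57 and 2.43 CPM in control embryos, against 32.1, 37.7 and 32.5 CPM in control oocytes. Embryo and oocyte libraries did not overlap for any of these 3 genes, nor for Mrps31. Their changes were -4.29 (SE 0.16, edgeR adjusted p = 3.9e-10) for Mrps35, -4.22 (SE 0.21, 4.6e-09) for Mrps5 and -4.07 (SE 0.18, 1.5e-09) for Mrpl47.

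Mrpl58, known in human cells as a peptidyl-tRNA hydrolase that became a ribosomal protein, fell as well, with log2 changes of -3.80 in knockouts and -3.41 in controls. Mrps27, a pentatricopeptide repeat protein of the small subunit, changed by -3.29 in knockouts and -3.60 in controls. Mrpl14, which lies at the subunit interface, changed by -3.53 and -3.29 in the same comparisons. Mrpl35, a bacterial-type protein, changed by -2.99 and -3.32, and Mrps33, a mitochondrion-specific one, by -3.54 and -3.17. Mrps36, which carries a ribosomal name but is now regarded as a component of the oxoglutarate dehydrogenase complex, changed by -3.58 and -3.31. Each of these 6 passed the test in both genotypes.

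**Figure D3:**
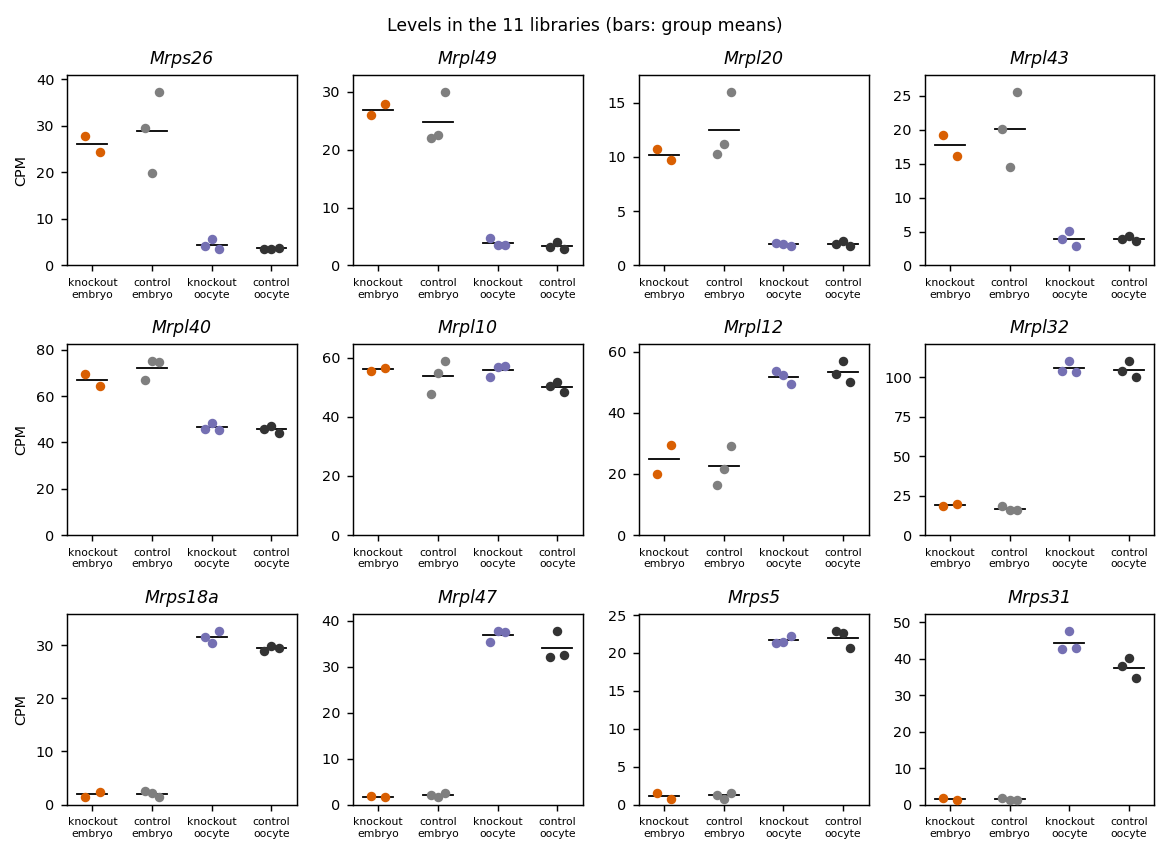
CPM of 12 members in the 11 libraries, by group; points are libraries, bars group means, and each panel has its own axis from 0. Mrps26, Mrpl49, Mrpl20, Mrpl43 and Mrpl40 were higher in embryos, Mrpl10 overlapped between embryos and oocytes, and Mrpl12, Mrpl32, Mrps18a, Mrpl47, Mrps5 and Mrps31 were lower in embryos.

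Within the large subunit, 23 of 29 bacterial-type proteins were lower and 3 were higher in knockout embryos over knockout oocytes, with a median of -1.60. Of the 28 tested in controls, 22 were lower and 3 higher, with a median of -1.32. Of the 22 mitochondrion-specific proteins of this subunit, 12 were lower and 6 higher in knockouts (median -0.81), and 11 were lower and 7 higher in controls (median -0.66). In the small subunit, 13 of 16 bacterial-type proteins were lower and 0 higher in knockouts (median -0.88), and 11 were lower and 2 higher in controls (median -0.67). Of the 10 mitochondrion-specific small-subunit proteins, 7 were lower and 1, Mrps26, was higher in both comparisons, with medians of -2.17 in knockouts and -2.14 in controls. Over all genes tested, 37.7% were lower and 42.5% higher in knockouts, and 40.0% were lower and 43.1% higher in controls. The mitochondrion-specific large-subunit proteins, with 50.0% lower in controls, were the class nearest to that share. The difference between these classes was not tested.

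The proteins of the stalk, which recruits translation factors to the large subunit, differed from each other in their changes. Mrpl10, its base, had 47.8, 54.8 and 58.7 CPM in control embryos, against 50.4, 51.6 and 48.2 CPM in control oocytes, and the groups overlapped. Mrpl12, the protein that Mrpl10 carries and that is also reported to bind the mitochondrial RNA polymerase in human cells, had 16.5, 21.6 and 29.3 CPM in control embryos, against 52.9, 56.9 and 50.3 CPM in control oocytes. Mrpl11, at the stalk base, had 2.50, 2.09 and 3.34 CPM in control embryos, against 20.1, 19.7 and 16.3 CPM in control oocytes. So Mrpl10 did not pass the test (log2 change 0.08, SE 0.10, edgeR adjusted p = 0.50), while Mrpl12 fell, with -1.28 (SE 0.17, 2.1e-05), and Mrpl11 fell further, with -2.84 (SE 0.20, 6.5e-08). Mrpl53 and Mrpl54, mitochondrion-specific proteins of the same region, fell too, with -1.81 and -1.94. In knockouts the 5 changes were -0.04 for Mrpl10, -1.11 for Mrpl12, -3.00 for Mrpl11, -1.67 for Mrpl53 and -2.10 for Mrpl54.

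A set of 3 genes descends from the bacterial S18 protein and their products occupy different places, Mrps18a in the large subunit, and Mrps18b and Mrps18c in the small. Mrps18a had 2.50, 2.09 and 1.48 CPM in control embryos, against 29.0, 29.8 and 29.4 CPM in control oocytes. Mrps18b had 10.4, 11.1 and 16.5 CPM in control embryos, against 31.0, 33.7 and 29.4 CPM in control oocytes. Mrps18c had 2.17, 1.46 and 2.78 CPM in control embryos, against 10.6, 11.5 and 9.40 CPM in control oocytes. Embryos lay below oocytes without overlap for each of the 3. Mrps18a and Mrps18b were close in oocytes and far apart in embryos, with log2 changes of -3.90 (SE 0.20, edgeR adjusted p = 4.2e-09) and -1.33 (SE 0.17, 1.4e-05). Mrps18c was between them, with -2.31 (SE 0.23, 1.7e-06). The knockout values were -4.09, -1.32 and -2.36.

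To compare genes with each other, reads were divided by the width that the table gives for each gene, as RPKM (reads per kilobase of width and per 1000000 counted reads). Mrpl32, whose maturation depends on a protease of the inner membrane in yeast and mouse, had the highest mean level over the 4 groups. It stood at 23.8 ± 0.668 RPKM in knockout embryos (SD, n = 2), 20.8 ± 1.98 RPKM in control embryos, 133 ± 4.89 RPKM in knockout oocytes and 131 ± 5.85 RPKM in control oocytes (SD, n = 3 each). In CPM Mrpl32 fell to 18.4, 15.6 and 15.8 in control embryos, against 104, 110 and 100 in control oocytes (log2 change -2.68, SE 0.11, edgeR adjusted p = 9.4e-10). Mrpl18, Mrpl40, Mrpl48, Mrpl34 and Mrpl12 followed, with means over the groups of 64.7, 54.8, 50.0, 46.7 and 40.2 RPKM. Of these, Mrpl40 led in embryos, at 63.4 ± 3.39 RPKM in knockout embryos (SD, n = 2) and 68.5 ± 4.43 RPKM in control embryos (SD, n = 3). Mrpl34, at 48.8, 46.5, 48.4 and 43.2 RPKM in knockout embryos, control embryos, knockout oocytes and control oocytes, was nearly level. The lowest were Mrpl23, Mrpl19, Mrpl13, Mrps10, Mrpl15 and Mrps34, with means of 0.481, 1.19, 1.19, 1.95, 2.20 and 2.38 RPKM. Mrpl23, known at the exit of the peptide tunnel, had 0.145 to 0.474 CPM over all 11 libraries and was tested only where it passed the filter. Mrpl13 and Mrpl19 have widths of 6652 and 5016 bases in the table, against 798 for Mrpl32, so their place in this order depends on those widths. The order over all 4 groups also hides the stages: in embryos of both genotypes Mrps31 was the lowest of all members, at 0.451 RPKM in knockout embryos and 0.426 RPKM in control embryos, with Mrpl23 next. Mrps10 ranked 56 of 78 in knockout embryos and 53 in control embryos, and Mrps34 ranked 54 and 61.

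The abundant members changed places between the stages. By CPM, Mrpl32, Mrpl48, Mrps25 and Mrpl18 were the 4 highest in oocytes of both genotypes, and Mrps25, Mrpl40, Mrpl10, Mrps30 and Mrps7 the 5 highest in embryos of both. The 5 highest held 28.7% of the members' reads in knockout embryos, 29.2% in control embryos, 21.7% in knockout oocytes and 22.2% in control oocytes. Mrps25 had 121, 77.8 and 86.7 CPM in control embryos and 87.7, 94.4 and 86.4 CPM in control oocytes, and its groups overlapped. Its exons overlap those of Nr2c2 on the opposite strand, a nuclear receptor gene that had 317 CPM in control embryos and 13.3 CPM in control oocytes. Whether reads were counted by strand is not given in the sources used, so reads from such an overlap cannot be assigned to 1 of the genes.

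Exons of 26 of the 78 genes overlap another gene in the GENCODE annotation, 22 of them on the opposite strand. Among the rising genes, Mrpl43 overlaps Twnk, the mitochondrial helicase gene, which also rose, by 1.45 on the log2 scale. Mrpl49 overlaps Syvn1, which fell by 1.86, Mrps26 overlaps the antisense gene 4930473A02Rik, which fell by 0.45, and Mrpl27 overlaps Eme1, which rose by 1.30. Mrpl20 is not in that list. Among the falling genes Mrpl47 overlaps Actl6a (-0.84) and Ndufb5 (-2.66), and Mrpl36 overlaps Ndufs6 (-3.28). Mrpl9 overlaps Oaz3 (2.51). Mrpl18 and Mrpl48, both among the highest by RPKM, overlap abundant genes on the opposite strand. For Mrpl18 this is Tcp1 (1.27), at 381 CPM in control embryos and 155 CPM in control oocytes. For Mrpl48 it is Rab6a (-0.04), at 213 and 215 CPM. Their levels may therefore hold reads of these genes, which was not tested. With the 52 members that overlap no other gene, 36 of 51 tested were lower and 6 higher in control embryos over control oocytes, with a median of -1.06. In knockout embryos over knockout oocytes 39 of 52 were lower and 4 higher, with a median of -1.15. Over all genes tested, 40.0% were lower and 43.1% higher in controls, and 37.7% were lower and 42.5% higher in knockouts.

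Many members start close to another gene that is transcribed the opposite way. Partners were protein-coding genes on the other strand that point away, with a GENCODE start at most 1000 bases upstream of the member's start. Pairs whose starts cross, so that the 2 genes overlap there, were left out by this rule. Such a partner was found for 18 of the 78 genes (23.1%), against 1484 of 21923 protein-coding genes (6.77%). Those 21923 were not limited to genes that passed the filter on low counts. Mrpl49 starts 59 bases from Fau, which encodes a protein of the cytosolic ribosome, and they changed by 2.87 and 2.39 in control embryos over control oocytes. Mrpl32 starts 75 bases from the proteasome gene Psma2, with -2.68 and -2.45. Mrps27 starts 81 bases from Ptcd2, with -3.60 and -2.68, and Mrpl30 starts 66 bases from Mitd1, with -2.44 and -3.05. Both genes of each of these pairs passed the test in the same direction, as they did in 5 falling and 4 rising pairs in all. Mrpl40 and Hira, a histone chaperone gene 175 bases away, rose by 0.64 and 1.17, and Mrpl51 and Ncapd2, a condensin gene 100 bases away, rose by 1.17 and 2.81. Opposite calls were made in 2 pairs, Mrpl37 (-1.08) with Cyb5rl (0.96) and Mrps18b (-1.33) with Ppp1r10 (0.62). In the other 7 pairs at most 1 gene passed. Over the 18 pairs the changes had a Pearson correlation of 0.80 and a Spearman correlation of 0.85, against 0.25 and 0.23 over all 614 such pairs of tested genes, as a description of points that share their libraries. The 18 pairs were entered in 1 order, member against partner, and the 614 in both orders. The 2 sets of values were therefore not computed alike, and the size of the gap cannot be read from them. The difference between these correlations was not tested.

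**Figure D4:**
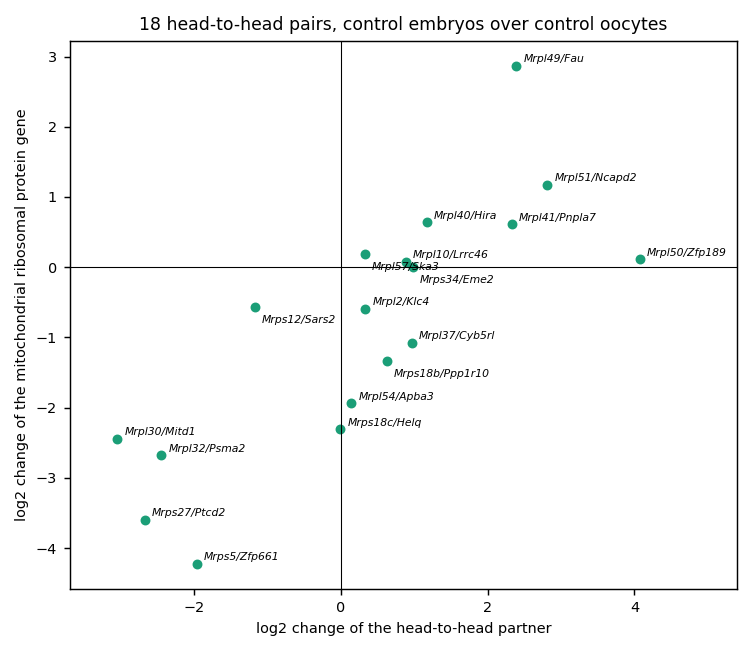
Log2 change in control embryos over control oocytes of 18 members (vertical axis) and of their head-to-head protein-coding partners within 1000 bases (horizontal axis). Each point is a pair, and pairs whose starts cross were left out. Mrpl49 with Fau lies at the upper right, Mrps27 with Ptcd2 and Mrps5 with Zfp661 at the lower left, and the Pearson correlation over the 18 pairs was 0.80.

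None of the members differed past the threshold between knockout and control oocytes. In knockout against control oocytes 0 of 78 passed the adjusted threshold in edgeR (background over 14235 genes 0.583%), and DESeq2 and limma-voom also called 0. At an unadjusted p under 0.05 there were 7 members, 5 higher and 2 lower, or 8.97% (background 10.3%). The median log2 change was 0.04, against 0.00 over all genes tested, and the members ranged from -0.19 to 0.43, with a median SE of 0.09. Mrps22, a mitochondrion-specific small-subunit protein whose mutation causes respiratory chain deficiency in humans, had the smallest p. It had 68.5, 75.7 and 70.4 CPM in knockout oocytes, against 79.4, 79.3 and 83.1 CPM in control oocytes, without overlap (log2 change -0.19, SE 0.05, edgeR adjusted p = 0.19). Mrps31 had 42.7, 47.6 and 42.9 CPM in knockout oocytes, against 37.9, 40.1 and 34.7 CPM in control oocytes, also without overlap (0.22, SE 0.07, edgeR adjusted p = 0.24). Mrpl44, an RNase III-like protein of the large subunit, had 14.9, 16.3 and 15.4 CPM in knockout oocytes, against 13.0, 13.6 and 12.5 CPM in control oocytes (0.23, SE 0.08, edgeR adjusted p = 0.33). Without overlap of libraries, 8 members were higher and 1 was lower in knockout oocytes, these 3 among them, and 69 overlapped. The share of all genes set apart in this way was not computed, and none of the members passed adjustment over all genes. Mrps34, Mrps27 and Mrpl10 came next by p, at 0.43, -0.13 and 0.14, with edgeR adjusted p of 0.35, 0.41 and 0.43. Mrpl9, a bacterial-type protein, had 1 library apart from the rest, at 39.5, 44.3 and 76.9 CPM in knockout oocytes, against 42.1, 41.4 and 39.7 CPM in control oocytes (0.37, SE 0.30, edgeR adjusted p = 0.79).

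In knockout against control embryos 0 of 77 members passed in edgeR (background over 15414 genes 0.0260%), and DESeq2 and limma-voom again called 0. At an unadjusted p under 0.05 there were 2 members (2.60%, background 3.19%), and the median log2 change was -0.09, with a median SE of 0.26. Mrps11, a protein of the small-subunit platform, had 3.28 and 4.78 CPM in knockout embryos, against 6.95, 4.70 and 9.99 CPM in control embryos. The groups overlapped (log2 change -0.87, SE 0.32, edgeR adjusted p = 1.00). Mrps23, a mitochondrion-specific small-subunit protein, had 16.2 and 19.1 CPM in knockout embryos, against 9.01, 12.5 and 15.2 CPM in control embryos, without overlap (0.50, SE 0.23, edgeR adjusted p = 1.00; 0.33 without knockout embryo replicate 3). Mrpl27, Mrps24, Mrpl18 and Mrpl35 came next, at -0.46, -0.36, -0.24 and 0.33, each with an edgeR adjusted p of 1.00. Single libraries moved all 4. Without knockout embryo replicate 2, Mrpl27 was at -0.28, Mrpl18 at -0.39 and Mrpl35 at 0.06. Without knockout embryo replicate 3, Mrpl18 was at -0.12 and Mrpl35 at 0.56, and without control embryo replicate 3, Mrps24 was at -0.19. Without overlap of libraries, 5 members were higher and 3 lower in knockout embryos, and 70 overlapped, with no share over all genes computed. The median SE in embryos was larger than in oocytes, so an effect of a given size was less readily detectable in embryos.

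The genotype effect in embryos minus that in oocytes, which is also the stage change in knockouts minus that in controls, passed for 0 of 78 members in edgeR (background over 17018 genes 0.0118%), and DESeq2 and limma-voom also called 0. Mrps11 was the 1 member at an unadjusted p under 0.05 (1.28%, background 5.41%), with a difference of -0.98 (SE 0.35, edgeR adjusted p = 0.91). Its change between the stages was -0.96 in knockouts and 0.03 in controls. Mrps27, Mrpl35, Mrpl9, Mrpl18 and Mrps16 followed, at 0.31, 0.33, -0.63, -0.25 and 0.55, with edgeR adjusted p of 0.93 or 0.94. For Mrpl9 the value was -0.26 without knockout oocyte replicate 3 and -0.38 without knockout embryo replicate 2. Without knockout embryo replicate 2, Mrpl35 was at 0.04, Mrpl18 at -0.41 and Mrps16 at 0.33, and without knockout embryo replicate 3, Mrps27 was at 0.17, Mrpl35 at 0.57 and Mrpl18 at -0.10. The median difference over the 78 was -0.17, with 59 below 0 and 19 above, against -0.01 over all genes tested, with 8661 below 0 and 8357 above. Cytosolic ribosomal protein genes had a median of -0.24, with 74 of 85 below 0, so the lean was not particular to the mitochondrial ones.

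**Figure D5:**
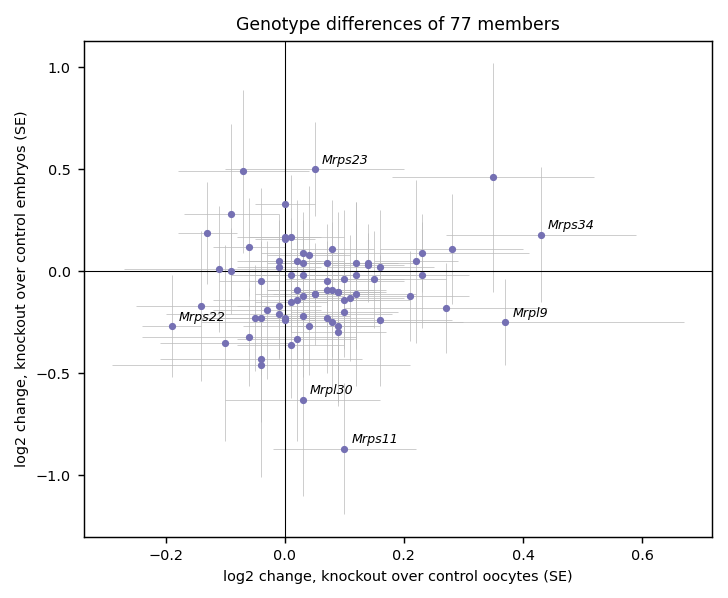
Log2 change in knockout over control embryos (vertical axis) against knockout over control oocytes (horizontal axis) for 77 members, with SE bars from edgeR. Points lie between -0.19 and 0.43 in oocytes and between -0.87 and 0.50 in embryos, and none passed the adjusted threshold at either stage.

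The rest of the mitochondrial translation pathway is described in control embryos over control oocytes, where 43.1% of all genes tested were higher and 40.0% lower. Among the 5 subunits that carry other names, Gadd45gip1 and Dap3, the GTP-binding protein of the small subunit, fell, with -3.44 and -2.26 on the log2 scale, while Ptcd3 rose by 0.85. Chchd1 and Aurkaip1 were lower in knockout embryos over knockout oocytes, at -0.55 (edgeR adjusted p = 0.0057) and -0.56 (0.0024), so that 4 of the 5 were lower there, and did not pass in controls, at -0.28 and -0.26 (edgeR adjusted p = 0.12 and 0.13). Of 27 genes for assembly of the ribosome and modification of its RNA, 12 were lower (44.4%) and 10 higher (37.0%), shares close to those of all genes. Mterf4, which brings an RNA methyltransferase to the large subunit, fell by 3.67, while the pseudouridine synthase gene Trub2 and the GTPase gene Noa1 rose by 3.14 and 2.32. Trmt61b, a methyltransferase gene, lay at 15.1 ± 2.83 CPM in control embryos and 0.0480 ± 0.0462 CPM in control oocytes (SD, n = 3 each), the second below what 3 reads equal. Of 15 translation factors, 8 were lower and 3 higher. Lrpprc, which stabilises mitochondrial messenger RNA, changed by -2.14, the membrane insertase gene Oxa1l by -2.30, the formyltransferase gene Mtfmt by -2.16 and the initiation factor gene Mtif3 by -0.92, all past the threshold.

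Of 11 genes for copying and transcribing mitochondrial DNA, 6 were higher and 2 lower in knockouts (median 0.47), and 7 were higher and 2 lower in controls (median 1.00), with no test of the list. Tfb2m, Polg2, Polrmt and Twnk rose by 2.88, 2.72, 1.53 and 1.45, and Tfam, which packages mitochondrial DNA, fell by 1.32. Of 9 tested regulators of nuclear genes for mitochondria, 7 were higher and 2 lower. Gabpa, the DNA-binding subunit of the factor that binds the ETS motif shown above, had 541 ± 43.9 CPM in control embryos and 0.805 ± 0.160 CPM in control oocytes (SD, n = 3 each). Yy1 had 260 ± 13.5 CPM in control embryos and 7.45 ± 1.21 CPM in control oocytes, and Pprc1 and Gabpb2 rose by 3.01 and 3.69. Nrf1 fell by 0.38 and the coactivator gene Ppargc1b fell by 1.19. Ppargc1b also differed by genotype in oocytes, at 32.0 ± 2.82 CPM in knockout oocytes and 21.2 ± 2.60 CPM in control oocytes (SD, n = 3 each; log2 change 0.58, SE 0.09, edgeR adjusted p = 0.018). In embryos its difference was 0.74 (SE 0.23, edgeR adjusted p = 1.00).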

How the data were processed

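Counts per gene and library were analysed as the authors deposited them: whole-number read counts for 24421 Entrez genes with a width per gene in 11 libraries. Per the submitters' processing notes, STAR 2.5.0a and SAMtools were used with GRCm38 (mm10). How reads were counted, and whether by strand, is not stated in the sources used here. Per the labels' protocols the libraries were made with NuGEN's SoLo kit. Symbols for 24387 identifiers came from a RefSeq table (GRCm38.p6), overlaps and head-to-head pairs from GENCODE (GRCm38) and promoters from RefSeq.

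Tests used edgeR 4.0.16 in R 4.3.3 on the counts: filterByExpr (count minimum 10, total minimum 15), TMM scaling, quasi-likelihood F test with robust estimation, Benjamini-Hochberg adjustment over all genes tested and a threshold of 0.05. Each comparison was fitted on its own groups, and the difference of effects on all 11 libraries. Each SE was computed as the size of the log2 change over the root of its F value. The procedure was tested on simulated data. Alternatives included DESeq2 1.42.0 and limma 3.58.1 (voom). Each library is a separate pool, so p-values measure the spread between pools. Replicates differed by more than counting noise, and each counted once. A first replicate of the knockout embryos was not analysed here.

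The genes named with statistics are the 10 largest rises and falls past the threshold in each stage comparison, the 6 members with the smallest p in each genotype comparison, the 6 highest and 6 lowest by RPKM, the S18 and stalk genes, and up to 4 genes per pathway list by p. Other genes were named after their values were seen. The members and lists were chosen with earlier results of these data known.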

Additional observations from a re-analysis of the deposited data

How the results depend on the processing

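In the stage comparisons, the alternatives (RLE scaling, total counts only, no filter, a minimum of 1 CPM in 2 libraries, DESeq2, limma-voom, a replicate block, leaving out each library, and a joint fit of all 11) kept every count of called members within 1.5 times. With 1 library left out, knockouts gave 9 to 11 higher and 53 to 55 lower, and controls 12 to 14 higher and 50 to 53 lower. Restricting to members that overlap no other gene, chosen after seeing the data, left 4 higher in knockouts and 6 in controls, with fewer genes tested by construction. RLE scaling moved the median of all genes by 0.10 in controls and that of the members to -0.98. The genotype comparisons and their difference had 0 called members under every alternative that kept at least 2 libraries in each group. Some alternatives left 1 knockout embryo library, so their lack of calls says little. Leaving out both embryo libraries with the highest Lars2 share, chosen after seeing the data, was among these. Of 822 recomputed values of named genes, 816 kept direction and side of the threshold, 6 lost the call (Mrps30 and Mrpl4 in knockouts) and 0 reversed.

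Replicate numbers did not pair the samples: deviations of same-numbered libraries correlated at -0.162 to 0.147. With the number as a replicate block, 9 members were higher and 55 lower in knockouts, where Mrpl4 lost its call (0.29, edgeR adjusted p = 0.082; 0.0010 to 0.092 over its alternatives), and 13 were higher and 51 lower in controls. The knockout embryos have 2 libraries, and embryo libraries hold fewer reads than oocyte libraries, so small genotype effects in embryos were less detectable. Intervals and floors from reads cover counting error only.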
